A study of Drosophila melanogaster with 3 samples.

Results

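The peaks described here lie at divergent promoters, where 2 protein-coding genes are read away from each other from neighbouring transcription start sites. They were mapped by chromatin immunoprecipitation and sequencing (ChIP-seq) of eyegone (eyg) in Drosophila melanogaster. Per the labels, the 3 biological replicates were collections of whole mixed-sex embryos aged 0 to 24 h from a transgenic line that stably carries eyg with a C-terminal green fluorescent protein (GFP). Sonicated chromatin of 200 to 800 bp was pulled down through the GFP tag. All 3 samples share this genotype and treatment, and the control experiment the labels point to was not analysed here. Whole embryos mix all cell types, so a peak found in few cells and a weak peak found in many cannot be told apart. The authors' optimal list, the regions that passed their reproducibility threshold on the dm6 build, holds 2537 peaks. A peak was a member when its summit lay within 1 kb of both starts of a head-to-head pair: a minus-strand start at the lower coordinate and a plus-strand start of another gene at the higher coordinate, at most 1 kb apart. This position rule used no signal value and gave 567 members, 22.3% of the optimal list and 35.3% of the 1607 peaks within 1 kb of a protein-coding start. The rest of the list comprised 1040 other promoter peaks and 930 distal peaks. Of the members, 524 lay near a single gene pair and 43 near several, and the closest pair by midpoint was used for each.

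Eyegone is a Pax-family transcription factor with a homeodomain and a shortened paired domain, known for its role in growth of the eye. Head-to-head gene pairs are frequent in the compact fly genome, and many of their genes work in every cell. Their promoters are known for short core motifs. The DNA replication-related element (DRE) TATCGATA is bound by the factor Dref, its core CGATA is also bound by the insulator protein BEAF-32, and GGTCACACT (Motif 1) is bound by the factor M1BP.

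Stretches between the starts of 8 members are shown because they carry the strongest signals, or the motifs whose shares are described further on. They are RefSeq sequence of the dm6 assembly, plus strand, 5′ to 3′, and contain no annotated exon. Capitals mark TATCGATA, GGTCACACT, the E box CAGCTGTT and the homeodomain core TAATTA, each on either strand. Art3/mRpS10 (chr3R:15229409-15229664) is the strongest member whose whole stretch can be shown, and of the 7 motifs searched in the stretches it held only CGATA. Atat/Shc (chr3L:9426759-9427009) is the strongest with TATCGATA. Tcs5/CHMP2B (chr3L:5139396-5139618) holds TAATTA, and RpS27/Nup37 (chr3R:25247515-25247657) an E box. For RpS27/Nup37 only the exon-free 143 of the bases between the starts are shown, and the summit lies outside them. That summit is 40 bp from the RpS27 start of the pair and 2 bp from another RpS27 start. RpL34a/Trmt61 (chr3R:26059268-26059495) holds TATCGATA at 2 places. CG13690/RpLP1 (chr2L:419653-419951) holds GGTCACACT. The stretch of slmb/CG5793 (chr3R:21127486-21127572) holds both TATCGATA and GGTCACACT. Dref/RpL13 (chr2L:9967230-9967312), chosen after its values were seen, is the promoter that the gene of the DRE factor itself shares with a ribosomal protein gene.
Art3/mRpS10: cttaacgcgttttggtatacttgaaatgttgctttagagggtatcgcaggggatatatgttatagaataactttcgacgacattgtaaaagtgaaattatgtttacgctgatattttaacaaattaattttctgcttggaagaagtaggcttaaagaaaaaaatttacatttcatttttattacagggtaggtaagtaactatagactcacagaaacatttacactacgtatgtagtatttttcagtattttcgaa
Atat/Shc: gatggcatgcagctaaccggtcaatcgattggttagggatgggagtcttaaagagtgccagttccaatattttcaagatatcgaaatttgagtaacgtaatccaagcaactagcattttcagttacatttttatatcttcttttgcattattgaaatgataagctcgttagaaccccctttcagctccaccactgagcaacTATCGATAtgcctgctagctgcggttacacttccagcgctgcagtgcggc
Tcs5/CHMP2B: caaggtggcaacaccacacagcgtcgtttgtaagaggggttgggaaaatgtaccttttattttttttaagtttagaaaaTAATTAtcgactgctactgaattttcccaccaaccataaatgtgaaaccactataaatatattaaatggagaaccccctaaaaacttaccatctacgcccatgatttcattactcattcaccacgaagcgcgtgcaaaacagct
RpS27/Nup37: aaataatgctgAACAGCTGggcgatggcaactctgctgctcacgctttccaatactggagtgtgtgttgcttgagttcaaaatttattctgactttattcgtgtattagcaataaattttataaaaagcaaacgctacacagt
RpL34a/Trmt61: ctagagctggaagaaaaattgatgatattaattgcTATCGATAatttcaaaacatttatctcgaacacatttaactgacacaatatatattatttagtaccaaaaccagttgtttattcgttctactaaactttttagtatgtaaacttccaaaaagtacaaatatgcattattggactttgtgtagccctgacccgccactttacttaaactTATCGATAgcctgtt
CG13690/RpLP1: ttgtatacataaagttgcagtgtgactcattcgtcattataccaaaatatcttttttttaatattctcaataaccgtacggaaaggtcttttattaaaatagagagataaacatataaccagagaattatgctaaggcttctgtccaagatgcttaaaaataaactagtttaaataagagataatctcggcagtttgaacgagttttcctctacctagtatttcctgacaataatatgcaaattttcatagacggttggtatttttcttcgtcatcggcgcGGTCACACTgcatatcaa
slmb/CG5793: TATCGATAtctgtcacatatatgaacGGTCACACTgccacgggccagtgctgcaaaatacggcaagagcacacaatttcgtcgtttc
Dref/RpL13: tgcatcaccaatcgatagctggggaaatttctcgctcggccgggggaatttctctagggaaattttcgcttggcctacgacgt

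The strongest member, which was also the strongest peak of the whole optimal list, lay between Ugalt, a UDP-galactose transporter, and eIF2Bbeta, a subunit of the exchange factor for the initiation factor eIF2 (chrX:2703699-2704076). Its pooled signal was 2151, in the authors' own unit whose scale is not stated, and its signal was 562.2, 770.6 and 825.0 in replicates 1, 2 and 3. It ranked 1 in each of the 3 replicate lists. PNPase/Gprk2, a mitochondrial RNA exonuclease beside a kinase of G protein-coupled receptors, had a pooled signal of 1382 and replicate signals of 349.5, 497.5 and 539.1. In mRpL41/CG8079 the pooled signal was 1308 and the replicate signals were 358.9, 400.9 and 551.9. Art3/mRpS10, an arginine methyltransferase gene beside a mitochondrial ribosomal gene, followed with 1147 in the pool and 312.5, 352.2 and 482.3 in the replicates. Each of these was lowest in replicate 1 and highest in replicate 3, and each list has its own scale, so ranks within a list are given beside the signals. The ranks of PNPase/Gprk2 were 9, 7 and 7, and those of Art3/mRpS10 were 13, 16 and 9.

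The rest of the 20 strongest members paired genes of varied or unnamed function. Chro/Ssl1 joins the chromodomain protein Chromator to a subunit of the general factor TFIIH, and had a pooled signal of 1146 with 262.4, 441.7 and 445.3 in the replicates. Atat/Shc, a tubulin acetyltransferase beside a receptor adaptor, had 960.2 in the pool and 257.9, 311.1 and 400.8 in the replicates. The mitochondrial ribosomal gene mRpS23 and CenG1A shared a peak of 974.2. The remaining 13 ran from 905.0 at Pdrg1/Pal1 down to 635.3 at Mkk4/SLIRP2, and were, in between, Tcs5/CHMP2B, Fbw5/CG9147, CG5757/CG5098, RpS27/Nup37, tank/CG12194, CG8372/CG8360, CG7601/CIA30, CG3437/CG3552, Dpit47/Adf1, CG11309/CG7632 and mRpL23/CG9004. Among them are a kinase of tRNA modification (Tcs5), a membrane-scission subunit (CHMP2B), a nucleoporin (Nup37) and a complex I assembly factor (CIA30). Of the 20, 18 had the summit between the starts. At tank/CG12194 the summit lay 135 bp inside the minus-strand side, and at Dpit47/Adf1 it lay 803 bp beyond the start of Adf1.

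The lowest members sat just over the authors' threshold. Their 5 lowest signals ran from 109.1 at CG3038/G9a, through Usp5/BtbVII, MICAL-like/CG11267 and Mef2/Pal1, to 108.3 at Etl1/Srp54. Just under it, the strongest divergent pairs without an optimal peak were pr/neb, JMJD7/CG10738 and CG16956/CG42784 at 108.2, and mgr/Irbp and Wdr24/IntS11 at 108.1. The replicates differed widely there: pr/neb ranked 5242, 2543 and 4328 in replicates 1, 2 and 3. At the edge of the distance limit, CG7656/RhoGAP71E, Gnpat/CG5112 and RpS7/Anp have starts 993, 994 and 1000 bp apart and were members. Just outside were peaks whose closest starts, of CG9992/CG4239, mRpS21/Droj2 and CG5377/Nrx-1, are 1012, 1013 and 1024 bp apart, with signals of 150.6, 156.9 and 309.4 beside 177.4, 146.2 and 139.1 for the 3 just inside. Other starts of mRpS21 and Droj2 lie 297 bp apart, and a second peak there (signal 112.8) was a member.

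Genes in head-to-head pairs were counted with a site more often than genes without a close neighbour. A pair had a site when an optimal summit lay within 1 kb of both of its starts. Of 2667 head-to-head pairs in the annotation, 603 had a site, which is 22.6% (95% Wilson interval 21.1 to 24.2%). Counted by gene, 1121 of 5052 genes in such pairs had one (22.2%), against 716 of 7960 genes with no other gene's start within 1 kb (8.99%, 8.39 to 9.64%). By this count a summit is credited to both genes of a pair, and a pair offers 2 promoters at which a summit can lie. How much of the difference comes from this counting was not tested. The 2 other arrangements of close starts differed. Tandem pairs, both on the same strand, had a site in 52 of 596 cases (8.72%), and in 9 of 337 (2.67%, 1.41 to 5.0%) where neither gene was also in a head-to-head pair. Facing pairs, whose starts point at each other, had a site in 45 of 182 cases (24.7%). Most of these facing pairs include a gene that is also in a head-to-head pair. Of the 37 facing pairs without such a gene, 3 had a site (8.11%, 2.80 to 21.3%). Intervals on shares cover counting error only, and pairs that share a gene or a site are not independent.

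Head-to-head pairs lay above tandem pairs and genes alone in each replicate, while the order of these last 2 sets varied. For this, the 2537 highest calls of each replicate's own list were used. Head-to-head pairs had such a call in 21.7%, 21.8% and 23.7% of cases in replicates 1, 2 and 3 (22.4 ± 1.14%, SD, n = 3). Tandem pairs had one in 8.39%, 9.06% and 9.23% (8.89 ± 0.444%), and genes alone in 9.28%, 8.82% and 8.71% (8.94 ± 0.306%). The ranges of the head-to-head pairs and of these 2 sets did not overlap. The difference between head-to-head and tandem pairs was 13.5 ± 0.903 percentage points (SD, n = 3; two-sided exact sign-flip permutation test, p = 0.25, the smallest p that 3 replicates allow). Against genes alone it was 13.5 ± 1.36 percentage points (same exact test, p = 0.25), a share of pairs set against a share of genes. Facing pairs, at 24.7%, 25.3% and 25.8%, lay above head-to-head pairs in all 3 replicates, by 2.85 ± 0.709 percentage points (same exact test, p = 0.25). The stretch that lies within 1 kb of both starts shortens as the starts move apart, and the median distance was 301 bp in head-to-head pairs and 736 bp in tandem pairs. The pairs were also split by distance, leaving out 37 head-to-head pairs of pieces of the gene mod(mdg4), described below. With the starts at most 500 bp apart, 468 of 1958 head-to-head pairs (23.9%) had a site. So did 4 of 63 tandem pairs without a head-to-head gene (6.35%). Over 500 bp these shares were 17.0% and 1.82%.

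**Figure D1:**
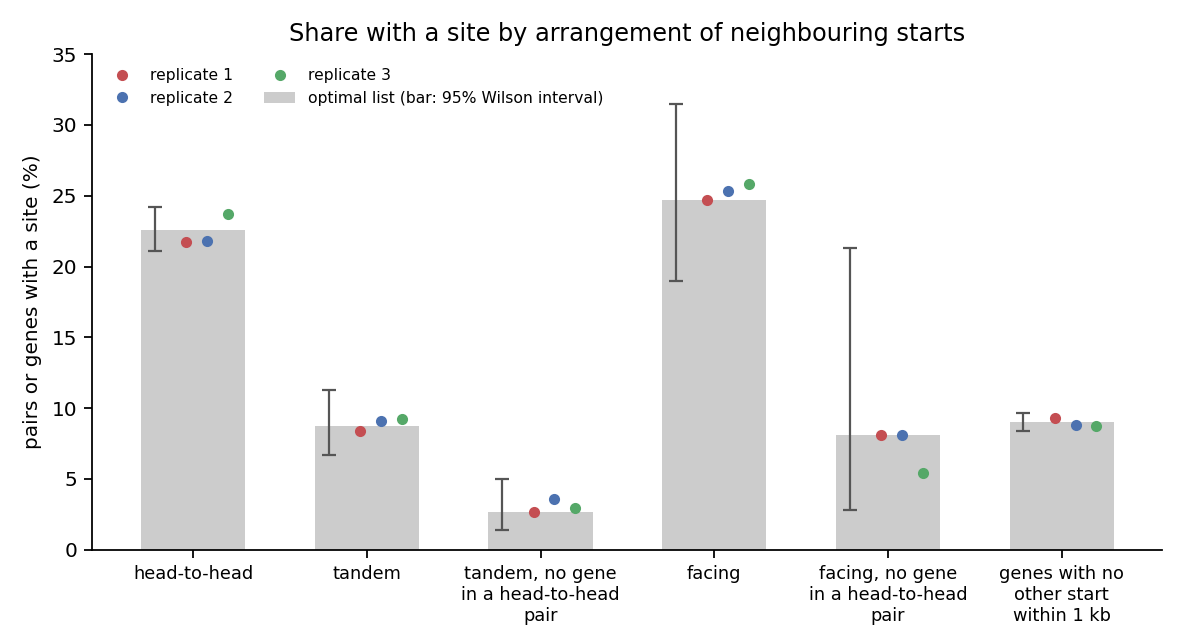
Percent of gene pairs, or of single genes in the last column, with a site, by arrangement of the starts. Grey columns are the optimal list with 95% Wilson intervals, and points are the 2537 highest calls of each replicate: head-to-head pairs at 21.7 to 23.7% lie above tandem pairs and single genes, and facing pairs fall to 8.11% without genes that are also in a head-to-head pair.

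Pairs with starts 200 to 300 bp apart had the largest share with a site, and wide pairs the smallest. The stretch within 1 kb of both starts is shorter in wide pairs, and its part in this trend was not tested. At 200 to 300 bp, 161 of 542 pairs had a site (29.7%, 26.0 to 33.7%), and at 800 to 1000 bp 27 of 193 did (14.0%, 9.80 to 19.6%). Under 100 bp the share was 22.8%, at 300 to 400 bp 25.8%, and at 400 to 600 bp 17.3%. In the replicates the 200 to 300 bp class had a call in 25.3%, 26.6% and 32.7% of pairs, and the 800 to 1000 bp class in 13.0%, 15.0% and 16.1%. These ranges did not overlap, whereas the 200 to 300 bp and 300 to 400 bp classes did (25.2%, 23.5% and 30.8% in the latter). Gene pairs were classed here by the smallest distance between their starts. Members were classed by the starts of their closest pair by midpoint, so the classes differ. The median pooled signal of members was highest at 200 to 300 bp, at 184, and lowest at 100 to 200 bp, at 143. It was 161 both under 100 bp and at 800 to 1000 bp. By chromosome arm, the share of pairs with a site was 24.3% on 3L, 27.8% on 3R, 21.4% on 2L, 20.4% on 2R and 16.6% on X, while 0 of 11 pairs on chromosome 4 had one (up to 25.9%).

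**Figure D2:**
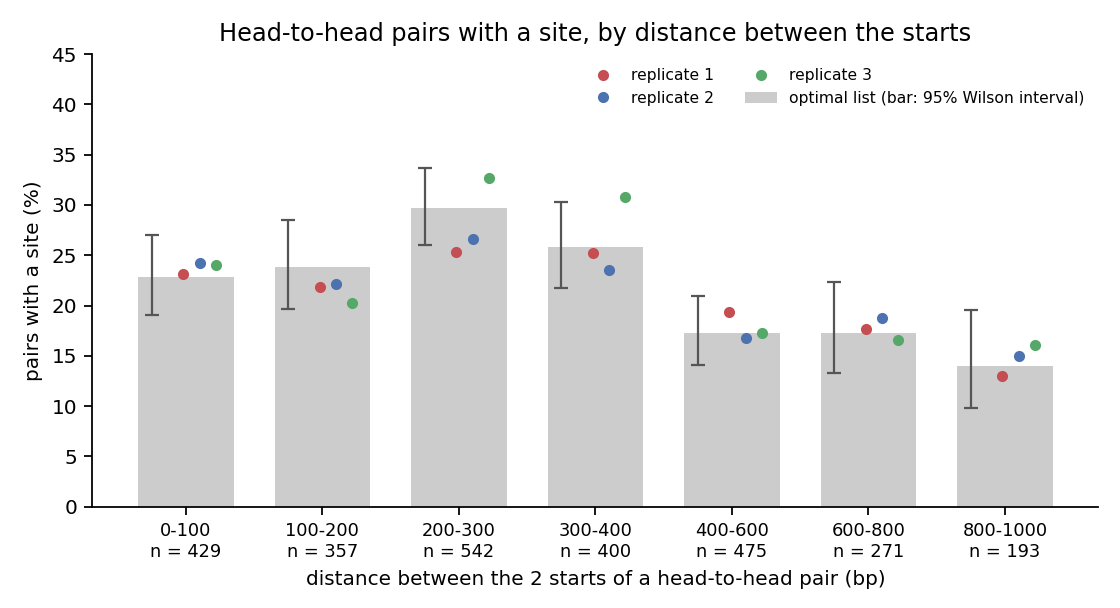
Percent of head-to-head pairs with a site (vertical axis) by the distance between the 2 starts in bp (horizontal axis, with the number of pairs). Grey columns are the optimal list with 95% Wilson intervals and points are replicates: the 200 to 300 bp class reaches 29.7% and the 800 to 1000 bp class 14.0%. The stretch in which a summit counts shortens as the distance grows.

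A single locus gave 37 of the 2667 head-to-head pairs and 21 of the 603 with a site. The gene mod(mdg4), whose product is a chromatin protein, is trans-spliced from pieces that the annotation lists as separate genes on both strands. The peak at pre-mod(mdg4)-C/pre-mod(mdg4)-Y (chr3R:21365235-21365658, pooled signal 250.5) lay within 1 kb of 21 such pairs. Without the 37 head-to-head pairs that include such a piece, 582 of 2630 pairs had a site (22.1%), and the share on 3R was 26.2%. By distance, the share was then 22.3% at 100 to 200 bp, 23.1% at 300 to 400 bp and 17.9% at 400 to 600 bp. At 200 to 300 bp it stayed at 29.7%. The replicate shares by distance given above include the mod(mdg4) pairs. Conversely, 34 gene pairs held several member peaks. Cp190/CG4338 and eIF3h/senju each held 2, and both Cp190 peaks lay in the same call of replicate 1, with a signal of 62.19.

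The summits lay between the starts. In 465 of 567 members (82.0%, 78.6 to 85.0%) the summit fell between the paired starts, although that stretch made up on average 26.7% of the positions the rule allows. Of the others, 60 lay on the side of the minus-strand gene and 42 on that of the plus-strand gene. Of the 465, 277 (59.6%) lay in the central 50% of the stretch and 211 (45.4%, 40.9 to 49.9%) were nearer the minus-strand start. The median summit was 69 bp from the centre and 94 bp from the nearer start of its pair. Using each replicate's own summits, 79.0%, 79.5% and 81.6% lay between the starts (80.1 ± 1.36%, SD, n = 3), and the median replicate summit was 17, 13 and 13 bp from the pooled one. Below the authors' threshold, 923 of 2032 pooled candidate regions at divergent promoters lay between the starts (45.4%, 43.3 to 47.6%). Choosing the pair with its midpoint nearest the summit favours positions between starts in members and candidates alike, and with only the outermost start of each gene the share in members was 65.1%. Measured to any protein-coding start, the median distance was 70 bp in members and 216 bp in other promoter peaks, whose summits have fewer starts around them.

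**Figure D3:**
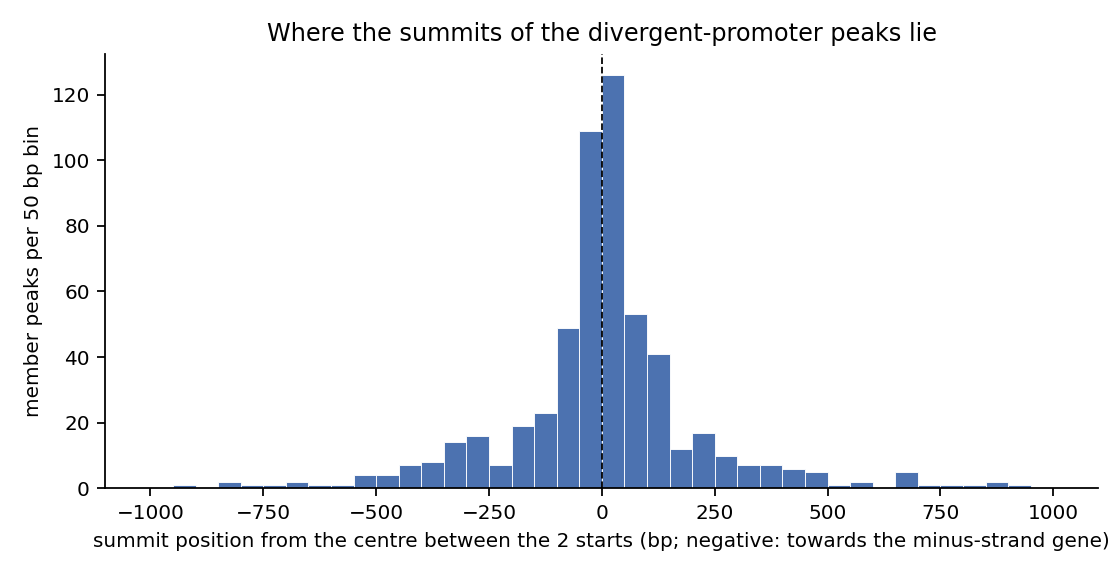
Number of member peaks per 50 bp bin (vertical axis) by the summit's position in bp from the centre between the paired starts (horizontal axis; negative values lie towards the minus-strand gene). The counts pile up around the centre, with a median distance of 69 bp, and thin out on both sides.

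In strength, members and all other promoter peaks differed by less than the spread between replicates. The pooled signal of members ranged from 108.3 to 2151 with a median of 165.1, beside 157.6 for other promoter peaks, 150.0 for distal peaks and 156.2 for all optimal peaks. Members took 7 of the 20 highest places and 30 of the 100 highest. Within each replicate, the median member stood at percentile 52.8, 50.3 and 55.5 of the optimal peaks by signal, and the median other promoter peak at 52.4, 51.7 and 51.5. The sign of the difference thus varied among replicates. It averaged 0.999 ± 2.75 percentile points (SD, n = 3; two-sided exact sign-flip permutation test, p = 0.75), with replicate values from -1.40 to 4.0. Against only the other promoter peaks within 200 bp of a start, members stood higher in all 3 replicates, by 3.82 points on average (same exact test, p = 0.25), and without peaks near ribosomal protein genes the difference was 0.145 points. Over the members with a call in both lists, signals of replicates 1 and 2 had a Spearman rho of 0.64 (553 members), and the other 2 pairs of replicates 0.65 and 0.66.

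Recovery in single replicates was also close. Among the 2537 highest calls of replicates 1, 2 and 3 were 78.1%, 83.2% and 87.8% of the members (83.0 ± 4.85%, SD, n = 3) and 78.6%, 82.7% and 82.7% of other promoter peaks (81.3 ± 2.37%). The difference was 1.75 ± 2.97 percentage points (two-sided exact sign-flip permutation test, p = 0.5). In all 3 replicates at once, 343 members were recovered (60.5%), beside 59.2% of other promoter peaks, 54.7% of distal peaks and 57.9% of the whole optimal list. Recovery failed in every replicate for 2 members.

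Before the threshold, candidates at divergent promoters already had higher signals. Of 2599 pooled candidates at divergent promoters 567 entered the optimal list (21.8%, 20.3 to 23.4%), against 13.9% of 7458 candidates at other promoters (13.2 to 14.7%), 6.81% of distal candidates and 10.7% of all 23721. The median candidate signal was 65.7 at divergent promoters, 55.6 at other promoters and 48.4 elsewhere. At least 1 candidate lay within 1 kb of both starts in 1916 of the 2667 pairs (71.8%), and 751 pairs had none.

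The elements TATCGATA and CGATA were more frequent near members than near other promoter peaks, and head-to-head pairs with and without a site held them at close shares. Motifs were searched on both strands within 100 bp of each summit, and within 100 bp of the centre of every head-to-head pair. TATCGATA stood near 68 of 567 member summits (12.0%, 9.57 to 14.9%), 36 of 1040 other promoter summits (3.46%) and 0.323% of distal summits, beside 4.22% of all optimal peaks. The difference between members and other promoter peaks was 8.53 percentage points (Newcombe 95% interval 5.79 to 11.6, counting error only), and 5.33 points against the 495 other promoter peaks within 200 bp of a start, of which 6.67% held the element. Around pair centres the element was present in 7.63% of pairs with a site (5.77 to 10%) and 8.82% of pairs without (7.67 to 10.1%), and in 8.55% of all 2667. The core CGATA, which TATCGATA contains, stood near 44.6% of members, 30.0% of other promoter peaks and 38.8% of those within 200 bp of a start, and in 41.0% of pairs with and 41.4% of pairs without a site. Outside a DRE it stood near 185 members.

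GGTCACACT stood near 23 members (4.06%, beside 1.93% of all optimal peaks) and 2.40% of other promoter peaks, and the interval of that difference included 0 (-0.0931 to 3.76 percentage points). Against other promoter peaks within 200 bp of a start, at 4.85%, its direction turned. It was in 2.82% of pairs with a site (1.77 to 4.47%), 4.80% of pairs without (3.96 to 5.81%) and 4.35% of all pairs. The E box CAGCTGTT stood near 43 members (7.58%, beside 4.61% of all optimal peaks), 5.10% of other promoter peaks and 6.87% of those within 200 bp of a start. It was in 8.46% of pairs with a site (6.49 to 11.0%), 6.35% of pairs without (5.37 to 7.48%) and 6.82% of all pairs. Carriers of these 3 motifs included strong members, such as Atat/Shc with TATCGATA and RpS27/Nup37 with an E box, but had lower medians. In each replicate the median percentile of the 68 members with TATCGATA lay below that of the rest, with differences of -8.14, -3.25 and -6.94 points, and that of the 23 with GGTCACACT differed by -9.22, -26.8 and -24.8 points. For the E box the differences were -6.33, -1.48 and -17.5 points. At least 1 of the 3 motifs stood near 122 members (21.5%). TATCGATA and the E box met in 9 members, TATCGATA and GGTCACACT in 2, and GGTCACACT and the E box in 1. Whether these counts differ from those of motifs placed independently was not tested. The median distance from summit to motif was 43 bp for TATCGATA and 56 bp for GGTCACACT.

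Repeats went the other way. GAGAGAG, the element of GAGA factor, stood near 10 members (1.76%) and 83 other promoter peaks (7.98%), a difference of -6.22 percentage points (-8.19 to -4.13). CACACACA stood near 1.59% of members and 5.19% of other promoter peaks. Both were as scarce in pairs without a site, at 2.42% and 1.36%. The homeodomain core TAATTA stood near 99 members (17.5%, 14.6 to 20.8%), 12.1% of other promoter peaks and 13.2% of distal peaks, and in 22.4% of pairs with a site and 22.0% of pairs without. The TATA box TATAAA stood near 32.5% of members and 26.5% of other promoter peaks, and in 35.8% of pairs with and 40.9% of pairs without a site. Motif 6, a further core promoter motif, stood near 11 members (1.94%) and 0.288% of other promoter peaks. It was in 1.82% of pairs with a site and 2.42% of pairs without. Of all optimal peaks, 5.12% held GAGAGAG, 4.57% CACACACA, 13.7% TAATTA, 28.5% TATAAA and 0.631% Motif 6. The median GC content of the windows was 37.3% in members and 38.8% in other promoter peaks, and its part in these shares was not tested. None of the 9 motifs stood near 141 members (24.9%).

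**Figure D4:**
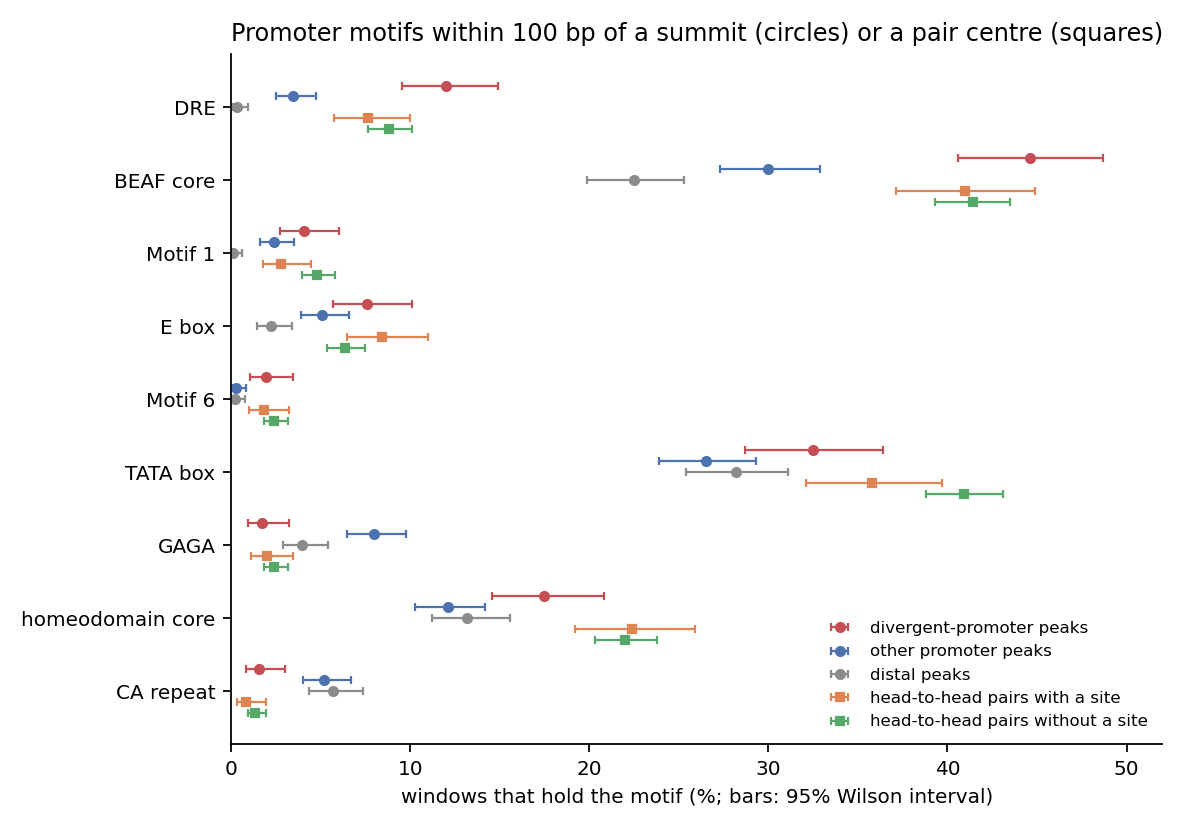
Percent of windows that hold each motif (horizontal axis), with 95% Wilson intervals. Circles are windows around summits and squares are windows around the centres of head-to-head pairs: TATCGATA reaches 12.0% in members and 3.46% in other promoter peaks, while pairs with and without a site stand at 7.63% and 8.82%.

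By gene function, the cytoplasmic ribosomal proteins stood far from all other paired genes. Of 53 ribosomal protein genes in head-to-head pairs 46 had a site (86.8%, 75.2 to 93.5%), beside 22.2% of all paired genes and 21.5% of the 4999 other paired genes. The share was 84.9%, 86.8% and 79.2% in the highest calls of replicates 1, 2 and 3, beside 20.6%, 20.7% and 22.9% of the other paired genes, so the ranges lay far apart in each. Of the 31 ribosomal protein genes with no other start within 1 kb, 18 had a site (58.1%, beside 8.99% of all such genes). Members with a ribosomal protein gene, 49 in all, had a median pooled signal of 218.9. In 36 of the 48 whose closest pair holds one, the summit was nearer the ribosomal start of that pair than the partner's start. Over all 48 the median distance was 44 bp to the ribosomal start and 318 bp to the partner's start. Only the 2 starts of the closest pair were measured, and other starts of either gene can lie nearer. At RpL28/eIF1 the RpL28 start of the pair was 514 bp from the summit, and another RpL28 start 56 bp. RpS27/Nup37 was the strongest, with 820.5 in the pool and 246.5, 287.1 and 279.3 in the replicates. Ripalpha/RpL7, where the partner is a replication protein A-interacting factor, had 534.3 in the pool and 164.5, 190.3 and 175.7 in the replicates. Nelf-E/RpL14, with a pausing factor subunit as partner, had 522.6 and 151.8, 189.1 and 185.6.

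Mitochondrial ribosomal genes gave 3 of the 6 strongest members, mRpL41, mRpS10 and mRpS23, yet as a group had no raised share. Of the 59 in head-to-head pairs 13 had a site (22.0%, 13.4 to 34.1%), close to the 22.2% of all paired genes, and at 2 of those 3 peaks the partner's start, of Art3 or CenG1A, was the nearer. Translation factors had a site in 8 of 26 paired genes, led by Ugalt/eIF2Bbeta, RpL28/eIF1 (303.0) and eIF3h/senju (260.5). Vesicle traffic genes had one in 14 of 52, led by Fur1/Vps33B (374.9), Sec61alpha/Daxx (321.9) and alphaCOP/CG13919 (268.2). Subunits of oxidative phosphorylation had one in 11 of 44, led by ND-ASHI/Fum1 (340.4), TppII/ND-MWFE (241.3) and ND-51/CG13994 (230.5). Insulator and core promoter factors had one in 4 of 11: the 3 strongest were Chro/Ssl1, Dref/RpL13 (314.3) and Cp190/CG4338 (237.3), the last encoding an insulator cofactor. The Wilson intervals of these lists all include 22.2%.

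The transcription machinery (Mediator, TFIID and RNA polymerase II) had a site in 8 of 43 paired genes, led by MED30/Rev1 (461.3), CG4297/MED15 (342.3) and CG11247/Polr2H (319.7). Aminoacyl-tRNA synthetases had one in 5 of 23, led by Dhc64C/LeuRS-m, SerRS/CG17260 and Hem/IleRS, and proteasome subunits in 5 of 22, led by Hat1/Rpn5, l(2)37Bb/Rpn3 and Slbp/Rpn2. Mitochondrial import and assembly genes had one in 2 of 6 (CG8229/Tom7 and Tim10/Ppcdc). DNA replication factors had one in 3 of 24 (12.5%, 4.34 to 31.0%; dup/SRPK, Art1/Mcm5 and Psf1/Sac1), and splicing factors in 3 of 28 (10.7%, 3.71 to 27.2%; Sf3b6/Tnpo, Oda/SmD3 and U2af50/PIG-Q). Both intervals include the 22.2% of all paired genes. All 6 of these peaks had a pooled signal of 148.1 or less, under the members' median. Of the tissue-restricted lists, chemosensory receptors had a site in 2 of 26 paired genes (7.69%, 2.14 to 24.1%), at Ir60e/CG13585 and CG11594/Gr64a. At both of these peaks the partner's start was the nearer. Cuticle protein genes had one in 0 of 13 (up to 22.8%). The intervals of these 2 lists also include 22.2%. The 2 lists of developmental regulators had few genes in this arrangement. In a head-to-head pair were 0 of 27 Hox and segmentation genes and 1 of 20 Pax and retinal determination genes, and that 1 had no site. Of all 13945 protein-coding genes, 5052 were in such a pair. No member had both genes of its closest pair in a single list.

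**Figure D5:**
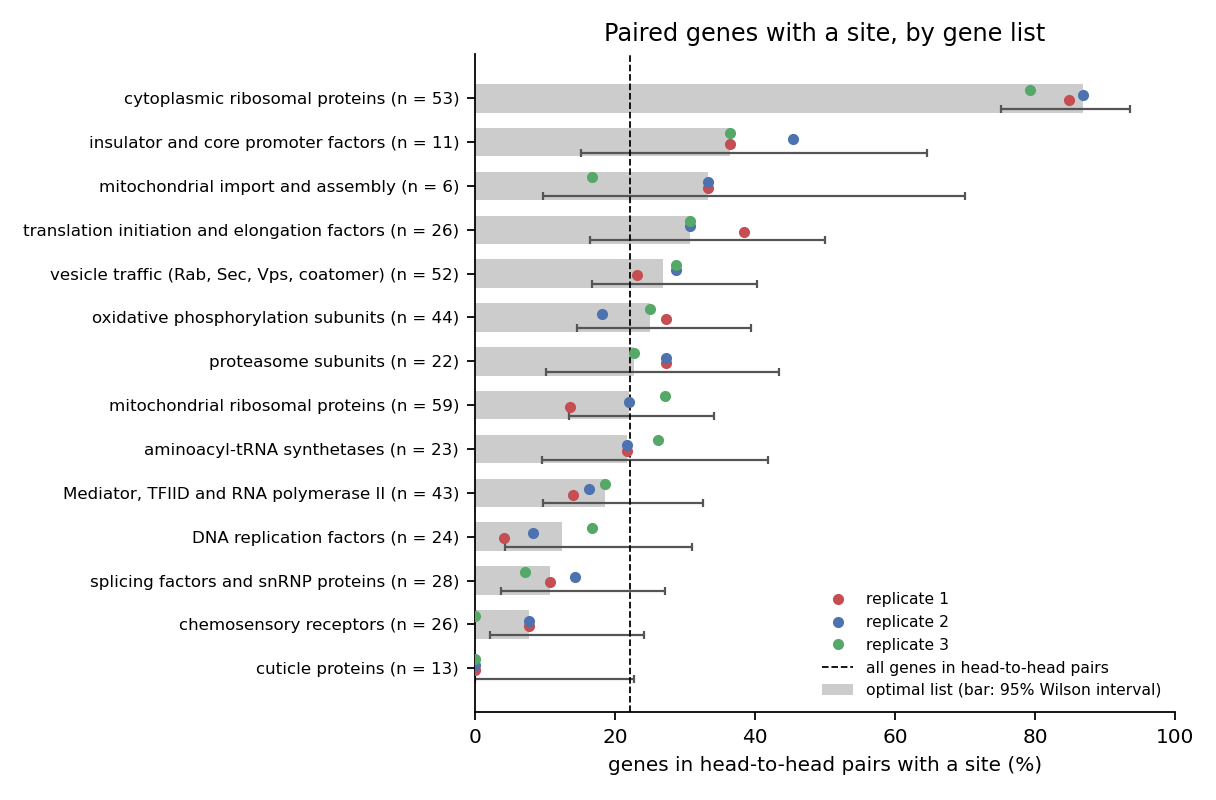
Percent of the genes in head-to-head pairs that have a site (horizontal axis), for each gene list with at least 5 paired genes. Grey bars are the optimal list with 95% Wilson intervals, points are replicates, and the dashed line marks the 22.2% of all paired genes: cytoplasmic ribosomal proteins stand at 86.8%.

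The eyg locus itself has no divergent promoter by this rule. Eyg and its neighbour and paralogue toe, both on the minus strand of 3L, have CG10616 as the nearest upstream gene read the other way, with starts 3707 bp and 39060 bp apart. The member nearest to both was CG10663/CG33725, one of the weakest at a signal of 113.4, 16998 bp from the start of eyg and 52351 bp from that of toe.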

How the data were processed

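ChIP-seq regions of 3 biological replicates of 1 group were used, all on dm6. Per the labels and the deposited listings, the authors called candidate regions against a control in each replicate and on the pool, and kept as optimal those reproducible between replicates (irreproducible discovery rate). Which aligner and peak caller they ran is not given in the sources used here. Each region in the deposited lists has a signal of unstated scale, a −log10 q-value and a summit offset. Signals rank or describe regions within a list only. No read counts are given, so depth is unknown. The antibody field of the labels names eyg, while their description names anti-GFP.

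Gene starts came from Ensembl release 115 (BDGP annotation 6.54) and sequence from RefSeq; 30540 of 30763 annotated start codons read ATG there, a check of the shared build. Coordinates are 1-based. A replicate value is the highest-signal call that covers the pooled summit. Python 3.11.15, numpy 2.4.6, pandas 2.3.3 and scipy 1.17.1 were used, and the position and pairing code was tested on simulated data. Shares have 95% Wilson intervals, and replicate differences the two-sided exact sign-flip permutation test.

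The members, the 16 gene lists and the 9 motifs were chosen with earlier results of these data known. Named are the 20 members of highest and 5 of lowest signal, up to 3 per gene list, members with both genes in a list, those nearest eyg and toe, the 5 strongest pairs without an optimal peak, and 3 pairs on each side of the distance limit. Printed sequences come from the highest of these and from motif carriers. Alternatives changed the distances, starts, windows, thresholds and replicates.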

Additional observations from a re-analysis of the deposited data

How the results depend on the processing

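The share of head-to-head pairs with a site was 22.6%. It was 24.4% for pairs at most 500 bp apart, mod(mdg4) pieces included, and 13.1% with the 50% of peaks of highest signal. With summits within 500 bp of each start it was 18.0%, and within 2 kb it was 26.9%. With only peaks among the highest calls of both other replicates, leaving out a replicate gave 15.9 to 17.0%. These settings count fewer or more sites by construction. Leaving out the mod(mdg4) pieces, an alternative chosen after seeing the data, gave 22.1%. The number of members ranged from 443 to 703 over its alternatives.

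The percentile difference from other promoter peaks, 0.999, was -0.503 without replicate 3 and ranged from -0.503 to 2.20 over the replicates left out. The recovery difference, 1.75, became -0.323 with 2 times as many calls and ranged from 0.0628 to 2.85 over the replicates left out. The cause was not tested in either case. The TATCGATA difference, 8.53 percentage points, was 4.23 with windows of 50 bp, 12.4 with 200 bp and 5.33 against other promoter peaks within 200 bp of a start. Summits between the starts, 82.0%, were 65.1% with only the outermost start of each gene, which moves the starts apart or changes the pair. No paired analysis was possible because all 3 samples form 1 group, so there are no groups to pair; differences between classes of peaks were taken within each replicate. The percentile difference was also 1.83 with only the outermost start of each gene.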
